A study of Mus musculus with 4 samples.

Results

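The comparison described here was between 2 arrays of skeletal muscle RNA from mice that lack TBP-2, the protein encoded by Txnip. One array held muscle of the ob/ob TBP-2-/- genotype and the other held muscle of the TBP-2-/- genotype, so the ob/ob genotype was the labelled difference and the absence of TBP-2 was shared. These were 2 of the 4 arrays of the study, the others being ob/ob and WT muscle with Txnip intact. All mice were 10 weeks old and fed ad lib, and each genotype had 1 array, so no difference between the pair has a replicate check and no p-value is given for it. The labels state neither which muscle was taken nor the strain, sex, or number of mice behind an array. A gene was compared where its brightest probe was well above background on both arrays, which held for 15618 of the 27597 genes on the array.

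Leptin is a hormone made by fat cells that restrains food intake, and mice homozygous for the ob allele make no working leptin and become obese and insulin resistant. Txnip encodes an arrestin-domain protein that binds thioredoxin and lowers glucose uptake, and its transcription follows glucose supply through carbohydrate-response factors. Mice without it handle fuel poorly when fasted, with defects of fat oxidation in muscle and heart.

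Levels are given as a scaled signal, in which the 75th percentile of each array's probes is set to 100, and they compare arrays for a probe, not probes with each other. A difference is the log2 level in ob/ob TBP-2-/- muscle minus that in TBP-2-/- muscle, and its standard error (SE) comes from the scanner software's error model, so it covers spot measurement and not the variation between mice. The 4 arrays had between 22675 and 24221 of 41174 probes well above background and no saturated spot, and the median SD between spots of a probe printed 10 times was 0.0702 on the ob/ob TBP-2-/- array and 0.0676 on the TBP-2-/- array (log2). The arrays sat on 1 slide and were read in 1 scan.

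The genotypes were first checked at Txnip and Lep. The brighter Txnip probe (chr3:96646629-96646688, mm8) read 63.4 in ob/ob TBP-2-/- muscle, 283 in TBP-2-/- muscle, 4257 in ob/ob muscle and 4719 in WT muscle. A second Txnip probe (chr3:96644567-96644741) was not well above background on either TBP-2-/- array and read 182 in ob/ob and 153 in WT muscle. Both null arrays were thus far below both arrays with Txnip, and the residual signal at the brighter probe was 4.47-fold lower in ob/ob TBP-2-/- than in TBP-2-/- muscle. The ob allele carries a stop codon and still makes a transcript, so the Lep signal can be read in both genotypes. Lep (chr6:29023244-29023303, mm8) read 218 in ob/ob TBP-2-/- muscle, against 35.9 in TBP-2-/- muscle, and 79.8 in ob/ob muscle, against 13.0 in WT muscle. Lep was therefore higher on both ob/ob arrays, and highest on the double mutant array.

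Some genes of body position also differed along the ob/ob genotype, on the arrays with and without Txnip alike. Six2, a homeobox factor of tendon and kidney progenitors, read 100.2 in ob/ob TBP-2-/- and 92.4 in ob/ob muscle, against 17.6 in TBP-2-/- and 2.52 in WT muscle. Hoxa11, a homeobox gene of the limb, read 112 and 125 on the same ob/ob TBP-2-/- and ob/ob arrays, against 30.3 and 10.8 on the TBP-2-/- and WT arrays. In the other direction Hoxc6 read 40.3 in ob/ob TBP-2-/- and 42.7 in ob/ob muscle, against 92.2 in TBP-2-/- and 113 in WT muscle. Pax3, a factor of muscle progenitors, was not well above background on the ob/ob TBP-2-/- and ob/ob arrays and read 11.4 in TBP-2-/- and 19.3 in WT muscle. Other position genes did not separate the arrays this way. Hoxc10 read 297 in ob/ob TBP-2-/-, 295 in TBP-2-/-, 313 in ob/ob and 337 in WT muscle. Hoxc9 read 881, 776, 742 and 894 in the same order. The genes named here were picked after their values were seen. The part of the dissected muscle or region in the results below was not tested. Of the Y-linked genes, Eif2s3y read 546 in ob/ob TBP-2-/-, 505 in TBP-2-/-, 609.8 in ob/ob and 626 in WT muscle. Of the X-linked Xist, 1 probe was well above background on the TBP-2-/- array alone (26.3) and a different probe on the WT array alone (19.2). Its other probes were not well above background on any array.

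Of the 15618 genes measured on both arrays, 280 (1.79%) were 2-fold or more higher in ob/ob TBP-2-/- muscle and 245 (1.57%) were 2-fold or more lower. At 1.5-fold the counts were 998 (6.39%) and 767 (4.91%). The median difference over all genes was 0.04. Scaling to the spike-in controls instead subtracts a further 0.13 from every difference and turns the 2-fold split to 208 higher and 358 lower, so list medians are given relative to the median of all genes.

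**Figure D1:**
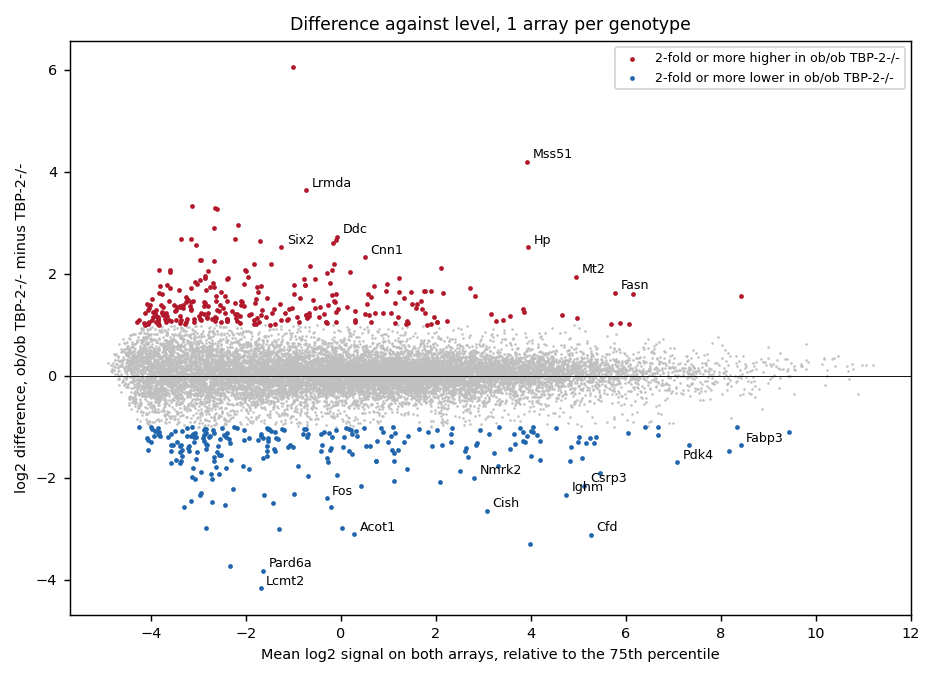
Each point is 1 of 15618 genes, with the mean log2 level on both arrays on the x axis and the log2 difference, ob/ob TBP-2-/- minus TBP-2-/-, on the y axis. The 280 genes that were 2-fold or more higher are red, the 245 that were lower are blue, and the largest differences lie mostly at low levels, with Mss51, Hp and Cfd among the exceptions.

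Genes of fatty acid uptake and oxidation leaned lower in ob/ob TBP-2-/- muscle. None of the 40 measured of 41 members lay above 0; 22 were 1.5-fold or more lower (4.91% of all genes) and 9 were 2-fold or more lower (1.57% of all genes), and the relative median was -0.75. Acot1, an acyl-CoA thioesterase of the cytosol, read 41.4 in ob/ob TBP-2-/- muscle, against 357 in TBP-2-/- muscle, an 8.62-fold lower level, with 74.2 in ob/ob and 45.5 in WT muscle. Its mitochondrial relative Acot2 read 31.2 in ob/ob TBP-2-/- muscle, against 122 in TBP-2-/- muscle, with 81.3 in ob/ob and 46.7 in WT muscle. The pair have similar sequences, so their probes may share signal. In both, the TBP-2-/- array was the high one of the 4.

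Pdk4, the kinase that shuts the pyruvate dehydrogenase complex when fat is burned, read 7489 in ob/ob TBP-2-/- muscle, against 24227 in TBP-2-/- muscle (difference -1.69, SE 0.20). Fabp3, the muscle fatty acid carrier, read 21242 in ob/ob TBP-2-/- muscle, against 54621 in TBP-2-/- muscle (-1.36, SE 0.20), with 29977 in ob/ob and 26498 in WT muscle. Plin5, which coats lipid droplets beside mitochondria, read 911 in ob/ob TBP-2-/- muscle, against 2209.8 in TBP-2-/- muscle. Acadl, a long-chain acyl-CoA dehydrogenase, had a difference of -1.16, Hadhb and Hadha, the subunits of the trifunctional protein, -1.12 and -0.97, and Acaa2, the mitochondrial thiolase, was 2.01-fold lower. The carnitine transferase Cpt1b, at the entry of fatty acids into mitochondria, differed by -0.36. With Txnip present the same list did not lean one way: 3 of 40 members were 1.5-fold or more higher in ob/ob than in WT muscle (6.2% of all genes) and 4 were lower (6.8%), with a relative median of -0.01. Of the 4, Pdk4 read 2836 in ob/ob against 9972 in WT muscle and Ucp3, a mitochondrial uncoupling protein, read 180.1 against 504. The difference between the 2 comparisons has no test with 1 array a genotype.

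The list of PPAR, ERR and mitochondrial regulators was split, with 7 of 20 measured members above 0. Of the 20, 5 were 1.5-fold or more lower (4.91% of all genes) and 1, Rxrg, a partner of nuclear receptors, was higher (6.39% of all genes), with a relative median of -0.34. Ppara, a fatty-acid-activated nuclear receptor, read 29.6 in ob/ob TBP-2-/- muscle and 75.7 in TBP-2-/- muscle, against 142 in both ob/ob and WT muscle. Esrrb, an oestrogen-related receptor, read 23.9 in ob/ob TBP-2-/- muscle, against 49.5 in TBP-2-/- muscle, and Perm1, a muscle regulator of oxidative genes, read 1155 against 2313. In the 250 bases before the start, none of the 32 members of the fatty acid list with a RefSeq promoter held the letters TNAAGGTCA, read on both strands, against 1.30% of all genes. None held AGGNCA, 1 base of any kind and AGGNCA either, against 0.400% of all genes. At shares this low, no match in 32 promoters is a likely outcome for any list, so no reading is drawn from it. The 19 genes of the tricarboxylic acid cycle had a relative median of -0.36, with only Idh2, the mitochondrial NADP-dependent isocitrate dehydrogenase, past 1.5-fold (953 in ob/ob TBP-2-/- muscle, against 1936 in TBP-2-/- muscle). The 41 genes of oxidative phosphorylation had a relative median of -0.24, 39 of them below 0 and 1 past 1.5-fold.

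Slow fibre genes were lower in ob/ob TBP-2-/- muscle, and fast fibre genes were close to the median of all genes. Of 14 measured slow fibre genes, 11 were 1.5-fold or more lower (4.91% of all genes), 9 of them 2-fold or more (1.57% of all genes), and the relative median was -1.28. Csrp3, the muscle LIM protein, read 1650.3 in ob/ob TBP-2-/- muscle, against 7351 in TBP-2-/- muscle, and 2006 in ob/ob muscle, against 9127 in WT muscle. The stretch-responsive ankyrin repeat gene Ankrd2 read 2249.8 in ob/ob TBP-2-/- muscle, against 8457 in TBP-2-/- muscle, and 3219 in ob/ob muscle, against 7789.8 in WT muscle. The ob/ob arrays were the low ones in both genes, and the same held for the slow troponins Tnni1, Tnnc1 and Tnnt1, which were 3.17-fold, 3.16-fold and 2.56-fold lower in ob/ob TBP-2-/- than in TBP-2-/- muscle. Myh7, the slow myosin heavy chain, read 46692 in ob/ob TBP-2-/- muscle, against 100615 in TBP-2-/- muscle. Myl3 did not follow its list, at 70057 in ob/ob TBP-2-/- and 70159 in TBP-2-/- muscle. Sln, the sarcolipin that inhibits the calcium pump, went the other way and was 2.46-fold higher, at 2229 in ob/ob TBP-2-/- and 906 in TBP-2-/- muscle. None of the 16 fast fibre genes passed 1.5-fold, and their differences ran up to 0.57 in Pvalb, the calcium buffer parvalbumin. The 15 skeletal muscle fibre markers had a relative median of 0.09 and a summed level of 1479410.0 in ob/ob TBP-2-/- and 1365460.0 in TBP-2-/- muscle. In whole muscle, fewer slow fibres and less RNA of these genes per fibre cannot be told apart, and the part of the dissected muscle was not tested.

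**Figure D2:**
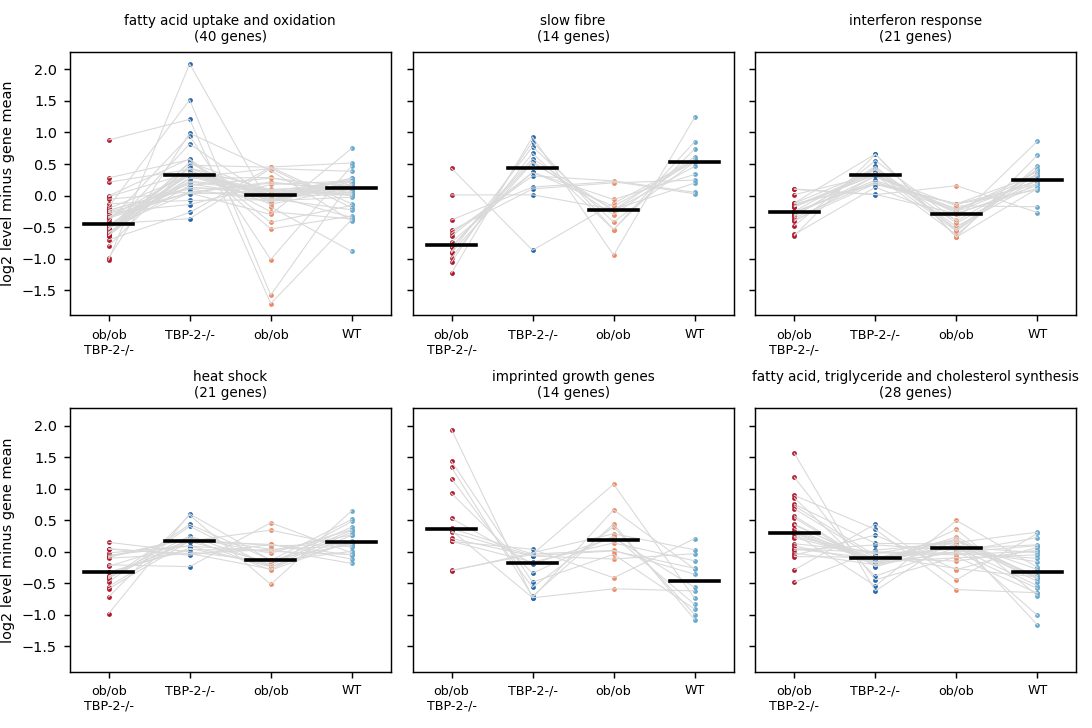
Each panel plots the members of 1 gene list that were well above background on all 4 arrays, as log2 level minus the gene's mean over the arrays, with a bar at the median. Fatty acid oxidation is lowest in ob/ob TBP-2-/- muscle and highest in TBP-2-/- muscle, while slow fibre and interferon response genes are low on both ob/ob arrays.

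Targets of growth hormone signalling included genes that differed widely over the 4 arrays. Cish, a feedback inhibitor that STAT5 switches on, read 337 in ob/ob TBP-2-/- muscle, against 2115 in TBP-2-/- muscle, and 64.2 in ob/ob muscle, against 1234 in WT muscle. Socs2, another feedback inhibitor of growth hormone, read 94.5 in ob/ob TBP-2-/- muscle, against 246 in TBP-2-/- muscle, and 57.5 in ob/ob muscle, against 174 in WT muscle. Both genes were low on both ob/ob arrays. Socs1 behaved otherwise, being high on the TBP-2-/- array (141) and between 43.4 and 49.5 on the other 3, the ob/ob TBP-2-/- array among them at 46.6. Mup4, a major urinary protein gene whose close relatives can cross-hybridise, read 13.8 in ob/ob TBP-2-/- muscle, against 49.1 in TBP-2-/- muscle. Igfbp3, a carrier of insulin-like growth factors, was 2.35-fold higher. In all, 5 of 14 measured members were 1.5-fold or more lower (4.91% of all genes) and 1 higher (6.39% of all genes). The letters TTCNNNGAA, read on both strands, occurred in the 250 bases before the start of 3 of 13 members with a RefSeq promoter (23.1%), against 8.13% of all genes. The 3 were Socs3, Bcl6 and Igfals, with differences of -0.59, -0.44 and 0.03. The letters were thus in 1 of the 4 lower members with a promoter. The list was made of such targets, so its share of promoters with the letters is no result of these arrays.

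Interferon response genes leaned lower in small steps. Of 21 measured members, 19 lay below 0 and 9 were 1.5-fold or more lower (4.91% of all genes), with a relative median of -0.62. The promoters of 2 members are shown because the letters GAAA, 2 bases of any kind and GAAA, the core read by interferon-activated factors, lay in 9 of 18 members' promoters (50%), against 3.46% of all 27025 genes with a promoter. Of the 7 lower members with a promoter, 5 held the letters. Matches on either strand are in capitals, in the 250 bases before the start, from RefSeq on GRCm38.p6. A match of letters is not a measured binding site. The list was made of interferon response genes, so the share of its promoters with the letters is no result of these arrays.
Oas1a (chr5:120907526-120907775, minus strand): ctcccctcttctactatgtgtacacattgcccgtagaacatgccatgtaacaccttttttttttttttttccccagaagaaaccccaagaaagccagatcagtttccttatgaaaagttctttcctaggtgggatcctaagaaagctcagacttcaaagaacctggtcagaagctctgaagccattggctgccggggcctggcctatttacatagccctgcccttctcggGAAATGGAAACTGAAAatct
Isg15 (chr4:156200819-156201068, minus strand): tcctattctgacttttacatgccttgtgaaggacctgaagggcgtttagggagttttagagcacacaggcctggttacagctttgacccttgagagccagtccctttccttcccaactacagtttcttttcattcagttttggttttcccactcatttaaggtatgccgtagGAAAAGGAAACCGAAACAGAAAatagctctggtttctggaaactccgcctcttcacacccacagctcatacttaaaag
Oas1a, an enzyme that senses double-stranded RNA, has 2 overlapping matches and read 7.51 in ob/ob TBP-2-/- muscle, against 18.4 in TBP-2-/- muscle, and 7.39 in ob/ob muscle, against 18.2 in WT muscle. Isg15, a ubiquitin-like protein, has 3 matches and read 21.4 in ob/ob TBP-2-/- muscle, against 35.3 in TBP-2-/- muscle. Irf7, the factor that amplifies the response, read 12.3 in ob/ob TBP-2-/- muscle, against 25.2 in TBP-2-/- muscle. With Txnip present 11 of 21 measured members were 1.5-fold or more lower in ob/ob than in WT muscle (6.8% of all genes), with a relative median of -0.58. Macrophage markers moved less: of 15, only Cd68 passed 1.5-fold lower, and the summed level was 8921 in ob/ob TBP-2-/- and 9909 in TBP-2-/- muscle. Ighm, the immunoglobulin mu chain of B cells, read 1183 in ob/ob TBP-2-/- muscle, against 5976 in TBP-2-/- muscle, and 238 in ob/ob muscle, against 4012 in WT muscle. Of 7 measured markers of T, B and plasma cells, Ighm and Cd79b were 2-fold or more lower, 3 lay above 0, and the relative median was -0.32. The summed level of the 11 markers on the array was 1289 in ob/ob TBP-2-/- and 6093 in TBP-2-/- muscle, and without Ighm it was 106 in ob/ob TBP-2-/- and 117 in TBP-2-/- muscle. The part of leukocyte number in the interferon genes was not tested.

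A share of the chaperones was lower on the ob/ob TBP-2-/- array. Of 21 measured heat shock genes, 8 were 1.5-fold or more lower (4.91% of all genes), 0 were higher and 4 lay above 0, with a relative median of -0.42. The letters GAANNTTC, the inner part of the heat shock element, lay in 8 of 15 members' promoters (53.3%), against 7.73% of all genes. The list was made of heat shock genes, so this share is no result of these arrays. Of the 7 lower members with a promoter, 3 held the letters. They are in capitals in the promoters of the pair with the largest differences.
Hspa1a (chr17:34972157-34972406, minus strand): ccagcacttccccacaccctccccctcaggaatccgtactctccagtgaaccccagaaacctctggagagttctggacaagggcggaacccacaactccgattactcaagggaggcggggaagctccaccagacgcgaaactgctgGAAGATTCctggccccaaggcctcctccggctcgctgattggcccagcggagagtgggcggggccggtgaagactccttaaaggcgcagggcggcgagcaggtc
Hspb1 (chr5:135887669-135887918, plus strand): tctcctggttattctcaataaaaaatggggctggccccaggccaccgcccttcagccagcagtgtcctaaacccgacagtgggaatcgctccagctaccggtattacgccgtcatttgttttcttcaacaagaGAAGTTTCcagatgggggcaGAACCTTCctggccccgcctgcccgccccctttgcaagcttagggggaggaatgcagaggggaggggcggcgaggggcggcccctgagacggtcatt
Hspa1a, the inducible 70-kilodalton chaperone, whose probe cannot be told from its copy Hspa1b, read 369 in ob/ob TBP-2-/- muscle, against 1106 in TBP-2-/- muscle. Hspb1, a small heat shock protein of muscle, read 2039 in ob/ob TBP-2-/- muscle, against 5007 in TBP-2-/- muscle, and 2339 in ob/ob muscle, against 5262 in WT muscle. Cryab, a related small chaperone of the sarcomere, was 1.84-fold lower by its brightest probe, and another of its probes lay at 0.44.

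Immediate early genes, which answer stimulation within minutes, were lower or close to the median of all genes. Of 24 measured members, 7 were 1.5-fold or more lower (4.91% of all genes) and 0 higher, with a relative median of -0.47. Fos read 35.2 in ob/ob TBP-2-/- muscle, against 186 in TBP-2-/- muscle, and 82.3 in ob/ob muscle, against 401 in WT muscle. Nr4a2, an orphan nuclear receptor, read 35.6 in ob/ob TBP-2-/- muscle, against 211 in TBP-2-/- muscle, and Atf3, a stress factor, read 90.1 against 233. Its relative Nr4a1 differed little between the arrays, at 23385 in ob/ob TBP-2-/- and 18925 in TBP-2-/- muscle.

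Among the groups that were higher, the imprinted growth genes held 6 of 15 measured members at 2-fold or more, against 1.79% of all genes. At 1.5-fold or more 7 were higher (6.39% of all genes) and none lower, with a relative median of 0.50. With Txnip present, 8 of 15 were 1.5-fold or more higher in ob/ob than in WT muscle (6.2% of all genes). There 1 was lower (6.8%), and the relative median was 0.80. Dlk1, a membrane protein that holds back fat cell and muscle differentiation, read 235 in ob/ob TBP-2-/- muscle, against 37.1 in TBP-2-/- muscle, and 41.0 in ob/ob muscle, against 40.0 in WT muscle. It was high on the double mutant array alone. Its neighbours Meg3 and Rian, noncoding RNAs expressed from the opposite parental copy of the same imprinted cluster, had another pattern. Meg3 read 1198 in ob/ob TBP-2-/- muscle, against 363 in TBP-2-/- muscle, and 706 in ob/ob muscle, against 269 in WT muscle. Rian read 231 in ob/ob TBP-2-/- muscle, against 56.0 in TBP-2-/- muscle, and 124 in ob/ob muscle, against 43.4 in WT muscle, although 3 of the 8 spots around its probe were also 2-fold or more higher. Mest, a gene known to rise as fat tissue expands, read 452 in ob/ob TBP-2-/- muscle, against 120.1 in TBP-2-/- muscle. It read 163 in ob/ob muscle, against 89.3 in WT muscle. Its probe lies on the chromosome of Lep, at chr6:30698289-30698348 (mm8), and the part of this position was not tested. Plagl1, a zinc finger factor, was 2.40-fold higher and the growth factor Igf2 2.09-fold, while H19, beside Igf2, read 1904 in ob/ob TBP-2-/- and 2272 in TBP-2-/- muscle.

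Genes of fatty acid, triglyceride and cholesterol synthesis leaned higher, with 10 of 28 measured members at 1.5-fold or more (6.39% of all genes), 1 lower and a relative median of 0.42. Fasn, the fatty acid synthase, read 9589 in ob/ob TBP-2-/- muscle, against 3110.2 in TBP-2-/- muscle, and 3996 in ob/ob muscle, against 2686 in WT muscle. Elovl6, which lengthens palmitate, read 193 in ob/ob TBP-2-/- muscle, against 42.6 in TBP-2-/- muscle, and Acly, which supplies acetyl-CoA from citrate, read 143 against 60.3. Srebf1, the sterol-response factor that drives them, was 1.72-fold higher. Gpam, at the first step of triglyceride assembly, was the 1 lower member. These genes are active in fat cells, so the adipocyte markers are given beside them. Of 12 measured adipocyte markers, 6 were 1.5-fold or more higher (6.39% of all genes) and 2 lower (4.91% of all genes), none was at 0, and the relative median was 0.42. The summed level of the 14 markers on the array was 36815 in ob/ob TBP-2-/- and 39818 in TBP-2-/- muscle, and without Cfd it was 35519.9 in ob/ob TBP-2-/- and 28583 in TBP-2-/- muscle. Fabp4, the fat cell fatty acid carrier, read 19250.2 in ob/ob TBP-2-/- and 18632 in TBP-2-/- muscle. The hormone gene Adipoq read 1930.2 in ob/ob TBP-2-/- muscle, against 1141 in TBP-2-/- muscle, and the lipid droplet gene Cidec read 2232 against 945. Cfd, the complement factor adipsin, was 8.67-fold lower, at 1295 in ob/ob TBP-2-/- and 11235 in TBP-2-/- muscle. Cidea, another lipid droplet gene, was 2.74-fold lower. The part of fat cells in the synthesis genes was not tested.

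Tendon and cartilage markers were on the higher side throughout. All 12 tendon and cartilage markers lay above 0, 7 of them 1.5-fold or more (6.39% of all genes) and 3 of them 2-fold or more (1.79% of all genes), and their summed level was 13788 in ob/ob TBP-2-/- and 7573 in TBP-2-/- muscle. Tnmd, the tendon membrane protein tenomodulin, read 428 in ob/ob TBP-2-/- muscle and 148 in TBP-2-/- muscle, against 246 in ob/ob muscle and 11.7 in WT muscle. Comp, a cartilage matrix protein, read 882 in ob/ob TBP-2-/- muscle and 448 in TBP-2-/- muscle, against 592 in ob/ob muscle and 13.9 in WT muscle. The WT array was the one apart in both, so a far larger ob/ob difference with Txnip rests on that array. Of 36 genes of the extracellular matrix, 9 were 1.5-fold or more higher (6.39% of all genes), 0 were lower and 8 lay below 0, with a relative median of 0.13. Thbs1, a thrombospondin, was 3.39-fold higher, Lox, the collagen cross-linking oxidase, 2.76-fold, and Eln, elastin, 2.06-fold. Tendon markers were higher beside these matrix genes, and their part was not tested.

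**Figure D3:**
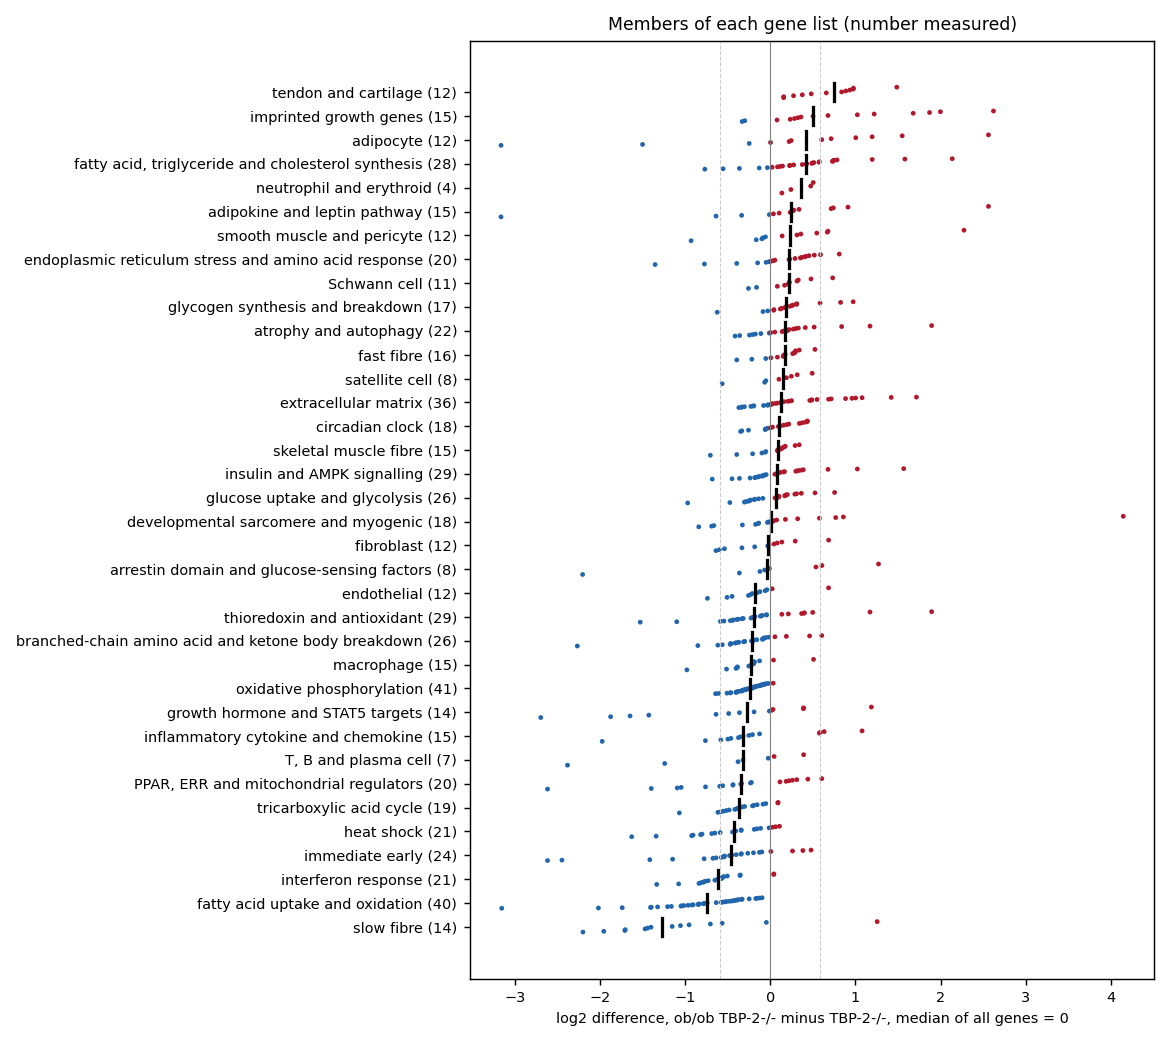
Each point is a gene, placed by its log2 difference between ob/ob TBP-2-/- and TBP-2-/- muscle after the median of all genes was subtracted, with a bar at the median of each list and dashed lines at 1.5-fold. The list medians run from 0.75 in tendon and cartilage down to -1.28 in slow fibre genes.

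Some members of other lists stood apart. In the thioredoxin and antioxidant list, the metal-binding Mt2 and Mt1 were 3.83-fold and 2.32-fold higher, while Gpx3, the plasma glutathione peroxidase, read 367 in ob/ob TBP-2-/- muscle, against 1027 in TBP-2-/- muscle, and catalase, Cat, 526 against 1092. Thioredoxin itself, Txn1, which TBP-2 binds, differed by 0.18. Of the other arrestin domain genes, Arrdc2 read 516 in ob/ob TBP-2-/- muscle, against 207 in TBP-2-/- muscle, and 470.1 in ob/ob muscle, against 162 in WT muscle, and Arrdc4, the closest relative of Txnip, read 196 against 125 without Txnip. Among insulin and stress genes, Ddit4, an inhibitor of the growth kinase mTORC1, read 12409.9 in ob/ob TBP-2-/- muscle, against 4064 in TBP-2-/- muscle, with 2983 in ob/ob and 2739 in WT muscle, and it was high on the double mutant array alone. Glycogen genes had 3 of 17 members 1.5-fold or more higher (6.39% of all genes): the targeting subunits Ppp1r3d (2.02-fold) and Ppp1r3c (1.83-fold) and Gys2, the liver form of the synthase (1.55-fold). Gys1, the muscle form of the synthase, read 612 in ob/ob TBP-2-/- muscle, against 913 in TBP-2-/- muscle. Chac1, which breaks down glutathione, was 2.48-fold lower. No gene of the circadian clock list passed 1.5-fold.

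Outside these groups, the largest differences fell into several patterns over the 4 arrays. Mss51, a mitochondrial protein gene of skeletal muscle, read 6429.6 in ob/ob TBP-2-/- muscle, against 353 in TBP-2-/- muscle, and 4603 in ob/ob muscle, against 64.4 in WT muscle. Hp, the haemoglobin-binding haptoglobin, read 3688 in ob/ob TBP-2-/- muscle, against 644 in TBP-2-/- muscle, and 1529 in ob/ob muscle, against 444 in WT muscle. Both were high on both ob/ob arrays, as were Lrmda, Ddc, Tecrl, Cnn1 and, at low signal, Orm1. The clone BC006965 had the largest difference among genes measured on both arrays, reading 403 in ob/ob TBP-2-/- and 6.06 in TBP-2-/- muscle, and it lies outside the rule for naming genes because it carries only a clone name. Among the lower genes, Wdfy1 and Lrtm2 read nearly the same on both ob/ob arrays. Lrtm2 read 14.2 in ob/ob TBP-2-/- muscle, against 114 in TBP-2-/- muscle, and 17.7 in ob/ob muscle, against 148 in WT muscle. Wdfy1 read 35.8 in ob/ob TBP-2-/- muscle, against 284 in TBP-2-/- muscle, and 33.1 in ob/ob muscle, against 284 in WT muscle, but its other probes ranged from -2.68 to 1.58. Lcmt2, a tRNA-modifying enzyme, read 7.29 in ob/ob TBP-2-/- muscle and between 129 and 154 on the other arrays, and Pard6a, a cell polarity gene, read 8.54 against 114 to 132. Each rests on 1 probe and on the ob/ob TBP-2-/- array alone, and 2 of the 8 spots around Pard6a were also lower.

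**Figure D4:**
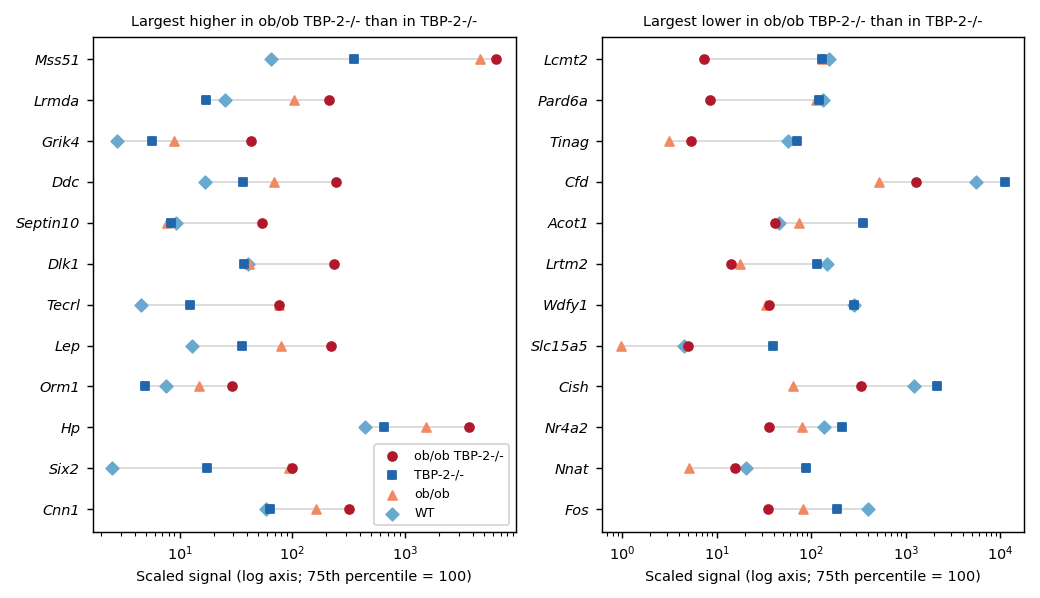
The plot gives the scaled signal on each array (log axis, 75th percentile of an array set to 100) for the 12 genes with the largest higher and the 12 with the largest lower difference. Mss51, Tecrl and Six2 are high on both ob/ob arrays, whereas Dlk1 and Septin10 are high, and Lcmt2 and Pard6a low, on the ob/ob TBP-2-/- array alone.

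How far the called genes rest on 1 array was counted. Of the 280 higher genes, 93 (33.2%) were 2-fold or more above each of the other 3 arrays on the ob/ob TBP-2-/- array, and 15 (5.36%) were 2-fold or more below each on the TBP-2-/- array. Of the 245 lower genes, 24 (9.80%) stood apart low on the ob/ob TBP-2-/- array and 41 (16.7%) stood apart high on the TBP-2-/- array. The position of the spots moved with the first of these counts. In 23 of the 93 genes, 2 or more of the 8 nearest spots were also 2-fold or more higher, against 4 of the other 187 higher genes. Grik4, Septin10, Cds1, Prdm6 and Ern2 are among the genes with such neighbours, Cds1 with 6 of 8, and 2 other Septin10 probes lay between 0.06 and 0.52, and the part of spot position in these differences was not tested. Of the 24 genes apart low on the ob/ob TBP-2-/- array, 1 had 2 or more neighbouring spots also 2-fold or more lower. Of the other 221 lower genes, 26 did. Without the genes that have such neighbours, 253 higher and 218 lower genes were left. Of 46 higher genes with another measured probe, 43 had all of these on the same side, and of 49 lower genes 43 did.

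A further 538 genes were well above background in ob/ob TBP-2-/- muscle only, and 699 in TBP-2-/- muscle only. For these a difference is a bound, the bright level over the higher of the dim probe's own signal and the lowest signal that counts as well above background. The bound reached 2-fold for 199 and 135 of them. Ncan, the proteoglycan neurocan, was at least 29.5-fold higher, reading 90.2 in ob/ob TBP-2-/- and 49.3 in ob/ob muscle and not well above background in TBP-2-/- or WT muscle. Angptl8, a hormone-like inhibitor of lipoprotein lipase, was at least 11.4-fold higher and was likewise seen on both ob/ob arrays only. Kctd4 and Cartpt, also at least 11.4-fold higher, were seen on the ob/ob TBP-2-/- array alone, with 3 of 8 neighbouring spots apart in each. Tsen34, a tRNA splicing subunit, was at least 301-fold lower, because it was not well above background in ob/ob TBP-2-/- muscle and read 951 to 1055 on the other arrays. In that case too 3 of 8 neighbouring spots were apart. Ifi27l2b and Ppm1h were at least 17.9-fold and 12.9-fold lower and were seen on the TBP-2-/- array alone. For Ifi27l2b 3 of 8 neighbouring spots were apart. Ces1f, a carboxylesterase, was at least 12.8-fold lower and was seen on the TBP-2-/- and WT arrays.

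The ob/ob difference without Txnip was set beside that with Txnip, which shares no array with it. With Txnip, 283 of 15088 measured genes (1.88%) were 2-fold or more higher in ob/ob than in WT muscle and 262 (1.74%) were lower. Over the 14908 genes well above background on all 4 arrays, 221 were 2-fold or more higher without Txnip and 278 with Txnip, and 65 were in both, which is 29.4% of the first set and 23.4% of the second. For lower genes the sets were 221 and 248, with 76 shared, which is 34.4% and 30.6%. Another 6 genes were 2-fold or more apart in opposite directions. Slpi, a secreted protease inhibitor, was 1.32 higher without Txnip and 2.50 lower with it on the log2 scale, reading 77.6 in ob/ob TBP-2-/- muscle, against 31.1 in TBP-2-/- muscle, and 7.32 in ob/ob muscle, against 41.3 in WT muscle. Kl, the ageing-related hormone receptor Klotho, read 17.6 in ob/ob TBP-2-/- muscle, against 7.13 in TBP-2-/- muscle, and 3.98 in ob/ob muscle, against 15.8 in WT muscle. With another background correction Slpi and Kl were 0.96 and 0.56 higher without Txnip, less than 2-fold.

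**Figure D5:**
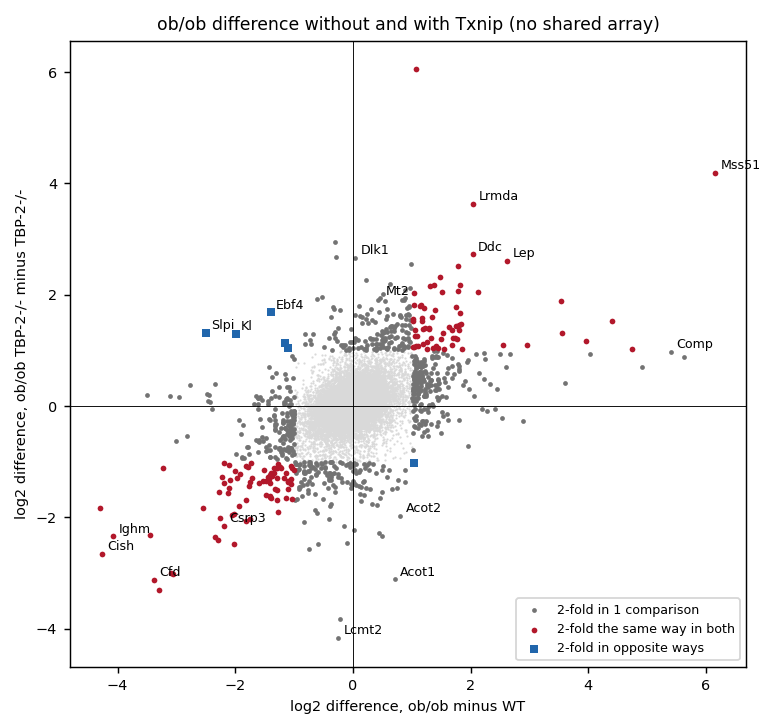
For 14908 genes the log2 difference between ob/ob and WT muscle is on the x axis and that between ob/ob TBP-2-/- and TBP-2-/- muscle is on the y axis. The red points (65 higher and 76 lower) were 2-fold or more apart the same way in both, Dlk1, Acot1, Acot2 and Lcmt2 were apart without Txnip and not with it, and Comp was further apart with Txnip.

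A fit over all 4 arrays can test the labelled ob/ob difference, on the assumption that it adds the same amount with and without Txnip. This additive limma model, with the Txnip genotype as the other term, has 1 residual degree of freedom. It favours genes whose 2 ob/ob differences are close. Agreement of a called gene in 2 of 2 pairs of arrays is therefore no further support. A difference in the part of the dissected muscle that ran the same way in both pairs would enter the ob/ob term. The fit cannot tell such a difference from the genotype. Of 16115 genes, 16 (0.0993%) were higher and 20 (0.124%) lower at a Benjamini-Hochberg adjusted p under 0.05, against 2183 with an unadjusted p under 0.05. Lep was 2.61 higher (adjusted p = 0.0281), in 2 of 2 pairs of arrays, as was the melanin enzyme gene Dct, 2.09 higher (adjusted p = 0.0383). Cfd was at -3.25 (adjusted p = 0.0223), Csrp3 -2.17 (adjusted p = 0.0368), Fos -2.34 (adjusted p = 0.0318) and the interferon-induced chemokine Cxcl9 -1.97 (adjusted p = 0.0448) by the same limma fit, each in 2 of 2 pairs. Mss51, whose differences with and without Txnip were unequal, was 5.17 higher and did not pass (adjusted p = 0.0573), nor did Cish at -3.46 (adjusted p = 0.0869) or Pdk4 at -1.75 (adjusted p = 0.0567). The counts depend on the processing: they ran from 0 with quantile normalization to 358 higher and 436 lower with another background correction.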

How the data were processed

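RNA of 4 mouse skeletal muscle samples was hybridised in Cy3 to 4 one-colour Agilent 44K arrays of 1 slide, per the labels. The deposited intensity values (processed signals, background-subtracted) come from Agilent Feature Extraction 9.5.3.1, per the submitters' processing notes and the file headers. The deposited log2 value table of the same arrays differed from the scanner values by a constant (r = 1.00 over 11014 bright probes) and served as an alternative. Probe positions are on mm8, per the file headers. Here control and outlier spots were left out, spots of a probe averaged, log2 taken and each array's 75th percentile subtracted. The brightest probe stood for a gene. Genes were named through RefSeq tables of GRCm38.p6 (24367 probes by accession, 6307 by symbol, 2425 by synonym, 8075 keeping the file's name).

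The text names the 12 largest differences each way that stayed 2-fold under quantile normalization and normexp correction, leaving out clones and predicted genes, 4 bounds each way, up to 5 members past 1.5-fold per list, and genes shared, opposite or apart on 1 array, up to 6 each way. The 36 lists (25 of pathways, 11 of cell types) and the members were chosen with earlier results of these data known. The additive fit used limma 3.58.1 in R 4.3.3. Its p-values weigh the ob/ob term against how unequal the 2 ob/ob differences of a gene were, with variances moderated over genes. That inequality rests on these 4 samples and cannot be told apart from variation between mice. On simulated data with these levels and array layout the fit recovered 87 of 100 changes of 2 and 97 of 100 of 4 (log2), with 9 false calls. The simulated arrays had independent noise, no Txnip effect, and the same ob/ob change with and without Txnip. The recovery therefore cannot show how the fit does where the ob/ob change is unequal. The number of arrays limits the precision. Alternatives were normalization, background correction, scaling, the filter on dim probes, and the probe rule.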

Additional observations from a re-analysis of the deposited data

Results flagged for a closer look

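Among genes well above background on all 4 arrays, 5 named genes had an ob/ob difference of 2-fold or more in one direction without Txnip and in the other with Txnip. The difference between the comparisons was not tested, since each side has 1 array a genotype. On the log2 scale and given as ob/ob TBP-2-/- minus TBP-2-/-, Slpi was at 1.32 and Kl at 1.30, and as ob/ob minus WT they were at -2.50 and -1.99. Ebf4 was at 1.69 without Txnip, where 2 of the 8 nearest spots were also higher and another probe was at 0.09, and at -1.40 with Txnip. Htra4 was at 1.14 without Txnip and at -1.16 with it. Lypd5 was the 1 named gene of the opposite order, at -1.02 without Txnip and 1.03 with it, with 2 of 8 neighbouring spots apart. With normexp background correction none of the 5 was 2-fold apart without Txnip. Slpi was then at 0.96, Ebf4 at 0.88, Htra4 at 0.87, Kl at 0.56 and Lypd5 at -0.03. The signals were low in Kl (3.98 to 17.6), Ebf4 (5.65 to 25.0) and Lypd5 (4.50 to 9.84).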

How the results depend on the processing

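The counts of genes 2-fold or more apart (280 higher, 245 lower) fell to 97 and 110 with normexp background correction, which shrinks differences of dim probes, and were 1367 and 1093 with no filter on dim probes, because unmeasured genes then enter. With spike-in scaling the higher genes were 36.7% of those called, against 53.3%. The other settings left both counts within 1.5 times. Of 93 named genes that were 2-fold or more apart, 66 stayed so under every alternative run. The additive fit (16 higher, 20 lower) gave 0 and 0 with quantile normalization (2183 genes had an unadjusted p under 0.05 in the fit as reported), 358 and 436 with normexp, 162 and 55 with spike-in scaling, 50 and 66 over genes well above background on all arrays, 224 and 226 with an intensity trend, and 16 and 16 from the deposited table. The cause of these shifts was not tested. Relative list medians kept 1 sign in 30 of 36 lists. Over 9 alternatives that of slow fibre genes ran from -1.32 to -1.04, of fatty acid oxidation from -0.86 to -0.70, of interferon response from -0.73 to -0.43, and of imprinted genes from 0.30 to 0.52. The sign differed under some setting in 6 lists: T, B and plasma cells (-0.32) to 0.090 with normexp, and satellite cells (0.15) to -0.014 with the median of a gene's probes and -0.091 with no filter, and 4 with medians near 0, namely skeletal muscle fibre (from -0.030 to 0.11 over the alternatives), developmental sarcomere (-0.14 to 0.050), glucose uptake (-0.048 to 0.073) and insulin signalling (-0.035 to 0.11). No paired analysis was possible because the labels carry no replicate numbers and each genotype has 1 array. Dim probes limit the precision, as their signal lies near background.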

Other observations

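Further genes were picked after their values were seen and are given as values without a test. The counts below describe only the genes picked, so the shares of all genes printed beside them are no comparison. Acute phase genes were higher beside Hp: Orm2, an orosomucoid, read 28.2 in ob/ob TBP-2-/- muscle, against 5.88 in TBP-2-/- muscle, and 11.3 in ob/ob muscle, against 5.14 in WT muscle. Of 7 measured such genes 5 were 2-fold or more higher (1.79% of all genes), and Cp, ceruloplasmin, lay at -0.24. Mast cell genes were higher in all 8 measured of 10, at 1.5-fold or more (6.39% of all genes). Cma1, the mast cell chymase, read 476 in ob/ob TBP-2-/- muscle, against 189.9 in TBP-2-/- muscle, and 272 in ob/ob muscle, against 181 in WT muscle. Mcpt4, another mast cell protease, read 315 in ob/ob TBP-2-/- muscle, against 135 in TBP-2-/- muscle. The antigen-presenting genes of MHC class II were lower in all 5 measured, at 1.5-fold or more (4.91% of all genes). Among them H2-Aa read 41.8 in ob/ob TBP-2-/- muscle, against 86.0 in TBP-2-/- muscle, and Cd74, the invariant chain, read 275 against 505.

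Of 22 measured Hox genes, those numbered 8 or higher and those numbered 7 or lower leaned in different directions, by a split set after the values were seen. Among the 8 measured genes of the first kind, 7 lay above 0 and 4 were 1.5-fold or more higher (6.39% of all genes), with a median of 0.57. The 4 were Hoxa11, Hoxd8, Hoxd9 and Hoxd10. Among the 14 of the second kind, 11 lay below 0 and 7 were 1.5-fold or more lower (4.91% of all genes), with a median of -0.47. Against the split, Hoxd4 was at 0.80 and Hoxa9 at -0.51. The part of the gene cluster in this split was not tested. Hoxd10 read 39.0 in ob/ob TBP-2-/- muscle, against 15.1 in TBP-2-/- muscle, and 27.5 in ob/ob muscle, against 8.56 in WT muscle. Ephx2, an epoxide hydrolase of the peroxisome, read 939 in ob/ob TBP-2-/- muscle, against 2304 in TBP-2-/- muscle. Mrap, which brings the receptor for adrenocorticotropin to the surface of fat cells, read 179.9 in ob/ob TBP-2-/- muscle, against 42.6 in TBP-2-/- muscle. Mss51 and Lrmda lie on the same chromosome, at chr14:19271745-19272112 and chr14:21844556-21844615 (mm8).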
